A study of Homo sapiens with 18 samples.

Results

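The 60 genes described here encode proteins that carry out or control cell division: the mitotic kinases and cyclins, the spindle checkpoint, the kinesin motors, the centromere and kinetochore, spindle assembly and cytokinesis factors, chromosome structure proteins and transcription factors of the late cell cycle. They were taken from a list of symbols with no threshold on their values, and the list was written with earlier results of these data known. All 60 were found once each among the 60709 genes with counts, and all 60 had enough reads to be tested with the 15189 genes that passed the filter on low counts. RNA was sequenced in 18 libraries from MDA-MB-231, a human line of triple-negative breast cancer. The sh-IGFBP6 cells carry a short hairpin against IGFBP6, a gene for a protein that binds insulin-like growth factors outside the cell, and the sh-LUC cells carry a control hairpin against luciferase and are labelled wild type. Each line was kept for 24 h with 2.5 µM erastin, which blocks cystine import and can trigger ferroptosis, with the omega-3 fatty acid docosahexaenoic acid (DHA) at 200 µM, or with vehicle. Vehicle was 0.5% DMSO and 0.5% ethanol, erastin was given in DMSO with 0.5% ethanol, and DHA in ethanol with 0.5% DMSO. The 6 groups held 3 samples each. The labels name 1 hairpin line per target and do not say whether the 3 samples were separate cultures, so p-values measure sample-to-sample spread that may be technical only.

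Division is driven by CDK1 bound to cyclins, which phosphorylates the proteins that condense chromosomes and build the spindle. Kinetochores tie chromosomes to spindle microtubules, and the checkpoint holds back the anaphase-promoting complex, a ubiquitin ligase, until every chromosome is attached. Most of these genes are transcribed late in the cell cycle, in G2 and M, under FOXM1, MYBL2 and the DREAM complex, which makes their summed RNA a common readout of how much a culture is dividing.

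Library totals ran from 609936 to 7977429 counts. Depth differed between groups: sh-LUC cells had 7281095 to 7977429 counts with erastin, 5666029 to 7937608 with DHA and 2708143 to 4043424 with vehicle, and sh-IGFBP6 cells had 609936 to 7153762 with erastin, 3174015 to 6592609 with DHA and 2994716 to 4660268 with vehicle. Its part in the results was not tested. Replicate 3 of sh-IGFBP6 erastin stood apart: it was the smallest, 54.38% of its counts were of MT-RNR1 and MT-RNR2, the ribosomal RNAs of mitochondria, where the other 17 libraries had 0.03487% to 0.5043%, and only 1207 counts fell on the 60 genes. Results that rest on it are given with and without it where they differ. IGFBP6 had 0.602, 1.35 and 2.22 CPM (counts per 1e+06, scaled by trimmed-mean factors) in untreated sh-IGFBP6 cells and 20.9, 20.1 and 17.3 CPM in untreated sh-LUC cells. The mesenchymal genes VIM, CD44, AXL, MSN and ANXA1, which mark MDA-MB-231, had at least 260.8 CPM in every library. Their levels differed between lines. Untreated sh-IGFBP6 and sh-LUC cells averaged 650.5 and 1335 CPM for CD44, 952.4 and 1579 CPM for AXL and 758.9 and 860.2 CPM for MSN. VIM averaged 1138 and 756.6 CPM and ANXA1 452.9 and 291.7 CPM in the same order. The part of these differences in the results was not tested. Of 5 luminal markers, ESR1 and PGR stayed at or under 3.003 CPM. The other luminal markers were measured: ERBB2 averaged 69.73 to 104.2 CPM over the 6 groups, GATA3 2.921 to 11.92 CPM and EPCAM 3.551 to 16.45 CPM. The luminal list summed to 93.24 CPM with erastin, 85.7 CPM with DHA and 106.5 CPM with vehicle in sh-IGFBP6 cells, and to 92.96, 108.3 and 120.1 CPM in sh-LUC cells in the same order, and its part in the results was not tested. The summed level of 4 leukocyte markers was 0 to 4.954 CPM. Of 5 fibroblast and endothelial markers, DCN was at or under 0.2396 CPM everywhere. PDGFRB carried most of that list's sum of 37.27 to 42.65 CPM in untreated sh-LUC cells, against 14.92 to 16.75 CPM there with erastin, 15.01 to 22.7 CPM with DHA and 0 to 3.15 CPM in sh-IGFBP6 cells, and its part in the results below was not tested. Changes are given on the log2 scale beside the standard error (SE), n = 3 per group. Calls rest on the quasi-likelihood test of edgeR, with p-values adjusted by Benjamini-Hochberg over all 15189 genes and a threshold of 0.05.

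Erastin lowered nearly the whole set in both lines, whereas DHA lowered it in sh-IGFBP6 cells and left most of it uncalled in sh-LUC cells. Summed over the 60 genes, sh-IGFBP6 cells had 5677, 5400 and 4598 CPM with erastin, 5519, 5867 and 5642 CPM with DHA and 9012, 8721 and 8990 CPM with vehicle. Summed in the same way, sh-LUC cells had 4666, 4854 and 4527 CPM with erastin, 9755, 9431 and 9482 CPM with DHA and 9199, 9420 and 9358 CPM with vehicle. Both treated groups of sh-IGFBP6 cells and the erastin group of sh-LUC cells thus lay well below their vehicle groups, and every sh-LUC DHA library lay above the vehicle libraries by a small margin. In these bulk samples fewer dividing cells and less of these RNAs per cell cannot be told apart.

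**Figure D1:**
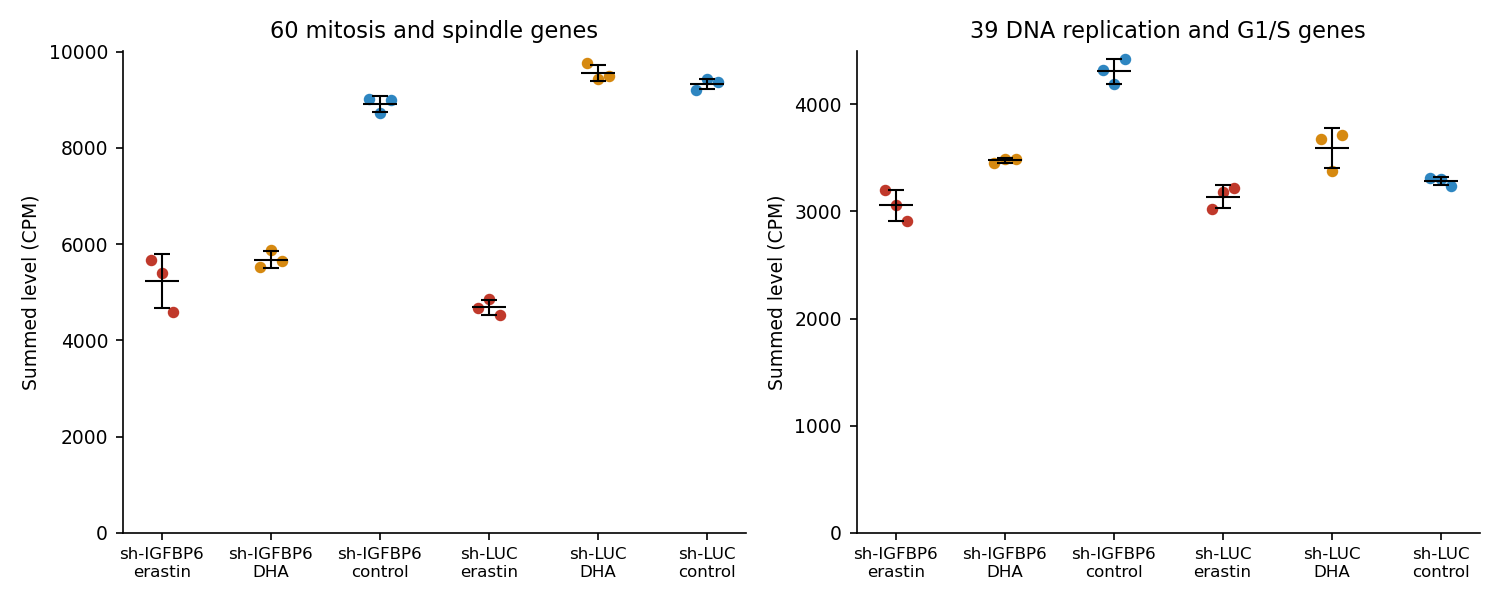
Summed level in CPM (vertical axes, from 0) of the 60 mitosis and spindle genes (left) and of 39 DNA replication and G1/S genes (right) in the 6 groups. Points are libraries, bars are mean and SD of 3. The 60 genes averaged 5225, 5676 and 8908 CPM in sh-IGFBP6 cells with erastin, DHA and vehicle, and 4682, 9556 and 9326 CPM in sh-LUC cells.

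With erastin, 58 of the 60 genes fell in sh-IGFBP6 cells, where 14.3% of all genes tested were lower and 14.7% higher, and 57 of 60 fell in sh-LUC cells, where 24.4% were lower and 21.4% higher. No member rose with erastin in either line, and all 60 log2 fold changes were below 0 in both. The median log2 fold change of the 60 was -0.74 in sh-IGFBP6 cells (-1.54 to -0.13) and -1.02 in sh-LUC cells (-2.05 to -0.05), with all tested genes at 0.00 and -0.02. At least 2-fold falls numbered 6 and 34. The 57 genes that fell in sh-LUC cells all fell in sh-IGFBP6 cells too. With DHA, 57 of 60 fell in sh-IGFBP6 cells (16.8% of all genes lower, 17.4% higher), with a median of -0.68, and none rose. In sh-LUC cells with DHA 1 fell, 10 rose and 49 were not called (9.63% of all genes lower, 7.14% higher), with a median of 0.06. These sh-LUC counts depend on the scaling and the test: under library size alone 0 members were lower and 1, SPC24, was higher, DESeq2 gave 1 lower and 4 higher, and RLE scaling and the replicate block each gave 2 lower. The count of 10 was 6 without vehicle replicate 2 and 5 without DHA replicate 1, and the members called lower were KIF20A and KIF18A without vehicle replicate 1. The DHA and erastin comparisons of a line share its vehicle libraries.

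**Figure D2:**
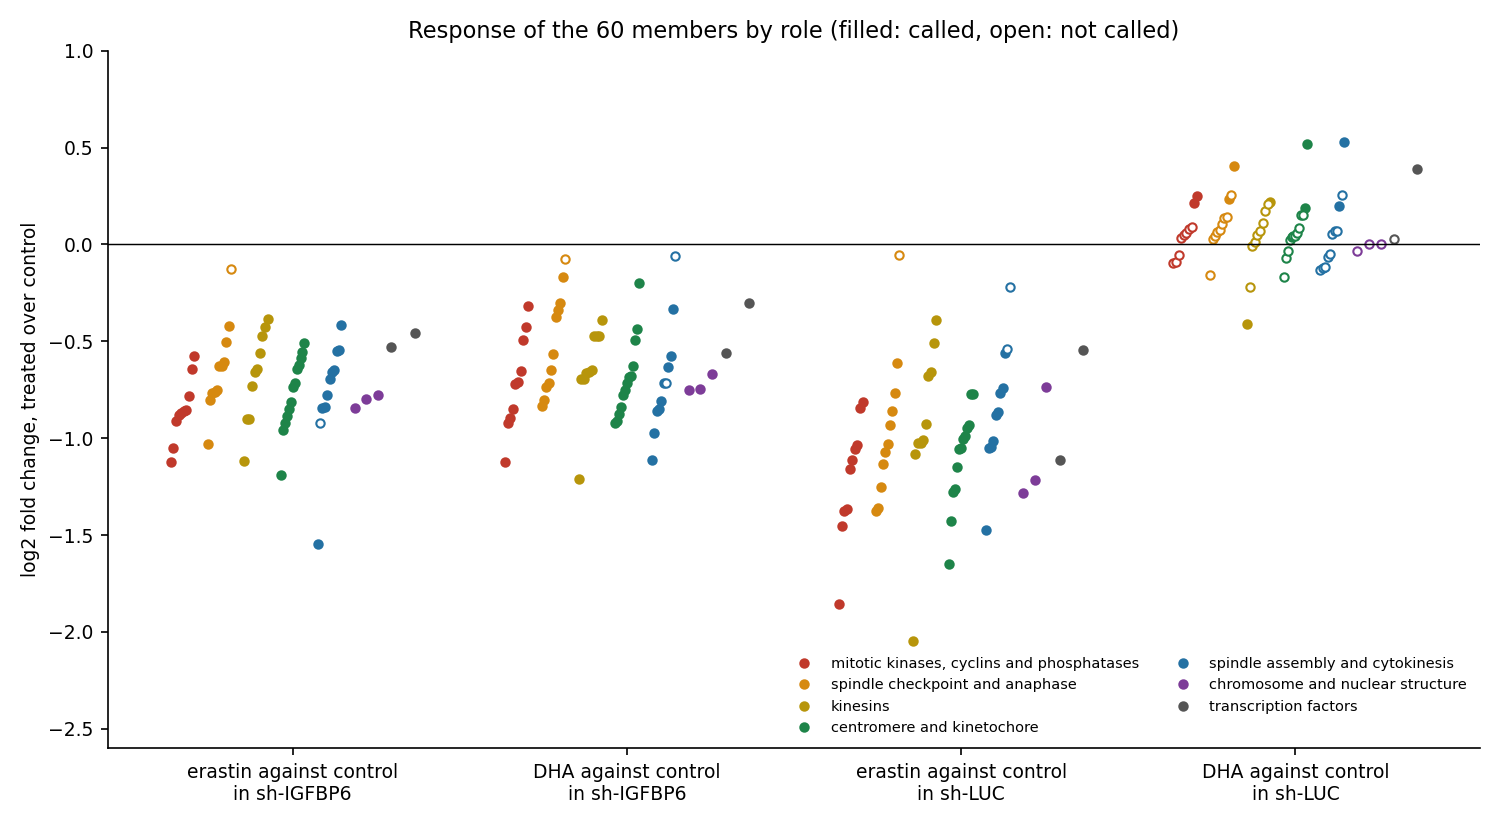
log2 fold change of treated over vehicle cells (vertical axis) for each of the 60 genes in the 4 treatment comparisons, coloured and grouped by role. Filled points were called at an adjusted p below 0.05 and open points were not. With erastin in both lines and with DHA in sh-IGFBP6 cells nearly all points are filled and below 0, while DHA in sh-LUC cells leaves 49 open around 0.

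Per kilobase of exon, the abundant members in untreated sh-LUC cells were UBE2C at 138 FPKM, TOP2A at 136 FPKM, TPX2 at 113 FPKM and ANLN at 97.7 FPKM, and the scarcest were HMMR at 2.29 FPKM, NUSAP1 at 0.886 FPKM and PRC1 at 0.849 FPKM (fragments per kilobase and 1e+06 reads, here levels and not differences). In untreated sh-IGFBP6 cells CDC20 (121 FPKM), TPX2 (121 FPKM) and UBE2C (118 FPKM) led. Another annotated gene on the same strand covered 62.2% of the exon bases of NUSAP1. For PRC1, a gene on the same strand and a gene on the opposite strand together covered 58.4%. How reads shared between genes were counted is not given in the sources used here. The values of NUSAP1 and PRC1 are therefore uncertain. SGO1, FOXM1, KIF22 and PLK1 shared 12.5% to 17.7% of their exon bases with genes on the opposite strand, and BUB1B shared 10.2% with the joined gene BUB1B-PAK6, while the other members shared less than BUB1B.

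The mitotic kinases, cyclins and phosphatases fell together: all 10 were lower with erastin in each line and with DHA in sh-IGFBP6 cells. PLK1, the polo-like kinase of centrosome maturation and kinetochore attachment, responded most within this group in sh-LUC cells with erastin. PLK1 had 78.3, 76.9 and 53.3 CPM in sh-IGFBP6 cells with erastin, 86.2, 86.7 and 89.8 CPM with DHA and 156, 135 and 145 CPM with vehicle. PLK1 in sh-LUC cells had 31.8, 32.8 and 28.9 CPM with erastin, 123, 111 and 116 CPM with DHA and 124, 111 and 105 CPM with vehicle. The treated libraries lay below all vehicle libraries in each case but DHA in sh-LUC cells, where the groups overlapped. The log2 fold change with erastin was -0.91 (SE 0.08, edgeR adjusted p = 1.7e-19) in sh-IGFBP6 cells and -1.86 (SE 0.08, edgeR adjusted p = 1.9e-42) in sh-LUC cells. With DHA the log2 fold change of PLK1 was -0.72 (SE 0.07, edgeR adjusted p = 5.8e-16) in sh-IGFBP6 cells and 0.05 (SE 0.07, edgeR adjusted p = 0.74) in sh-LUC cells.

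CDK1 is the kinase whose activity with B-type cyclins starts mitosis. CDK1 had 60.8, 56.1 and 38.1 CPM in sh-IGFBP6 cells with erastin, 72.4, 83.6 and 77.8 CPM with DHA and 117, 108 and 94.3 CPM with vehicle. CDK1 in sh-LUC cells had 47.4, 52 and 51.9 CPM with erastin, 115, 126 and 127 CPM with DHA and 99.1, 99.5 and 110 CPM with vehicle. DHA thus went with lower CDK1 in sh-IGFBP6 cells (-0.43 on the log2 scale, SE 0.08, edgeR adjusted p = 1.9e-06) and with higher CDK1 in sh-LUC cells (0.25, SE 0.07, edgeR adjusted p = 0.0072), in each line with no overlap of treated and vehicle libraries. With erastin CDK1 had a log2 fold change of -0.87 (SE 0.09, edgeR adjusted p = 5.4e-16) in sh-IGFBP6 cells and -1.03 (SE 0.08, edgeR adjusted p = 3.1e-23) in sh-LUC cells. CCNB1 encodes cyclin B1, a partner of CDK1. CCNB1 had 135, 123 and 95.2 CPM in sh-IGFBP6 cells with erastin, 139, 152 and 147 CPM with DHA and 235, 222 and 237 CPM with vehicle. CCNB1 in sh-LUC cells had 71.5, 66.9 and 66.2 CPM with erastin, 182, 161 and 166 CPM with DHA and 167, 176 and 183 CPM with vehicle. With DHA the sh-LUC groups of CCNB1 overlapped (log2 fold change -0.05, SE 0.06, edgeR adjusted p = 0.65), whereas the sh-IGFBP6 groups were apart (-0.65, SE 0.06, edgeR adjusted p = 1.9e-16). CCNA2 and CCNB2, the other cyclins of the set, fell with erastin by 0.88 and 0.64 in sh-IGFBP6 cells and by 1.06 and 1.16 in sh-LUC cells on the log2 scale.

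AURKA, the Aurora kinase of centrosomes and spindle poles, and AURKB, the catalytic subunit of the chromosomal passenger complex, were both lower in treated sh-IGFBP6 cells. AURKA had 74.5, 65.7 and 45.7 CPM in sh-IGFBP6 cells with erastin, 78.1, 82.3 and 79.5 CPM with DHA and 149, 133 and 153 CPM with vehicle. AURKA in sh-LUC cells had 69.6, 64.4 and 63.7 CPM with erastin, 191, 171 and 183 CPM with DHA and 166, 167 and 178 CPM with vehicle. For AURKA every treated sh-IGFBP6 library lay below every vehicle library, and the sh-LUC DHA and vehicle libraries overlapped. AURKB had 52.5, 52.1 and 22.9 CPM in sh-IGFBP6 cells with erastin, 73.6, 73.6 and 77.3 CPM with DHA and 97, 91.7 and 91.8 CPM with vehicle. AURKB in sh-LUC cells had 56.6, 54.4 and 49.6 CPM with erastin, 112, 113 and 108 CPM with DHA and 103, 98 and 88.4 CPM with vehicle. With DHA in sh-IGFBP6 cells AURKA had a log2 fold change of -0.85 (SE 0.07, edgeR adjusted p = 8.7e-20) and AURKB of -0.32 (SE 0.08, edgeR adjusted p = 0.00045), and in sh-LUC cells AURKA had 0.09 (SE 0.06, edgeR adjusted p = 0.39) and AURKB 0.21 (SE 0.07, edgeR adjusted p = 0.027). The rise of AURKB in sh-LUC cells with DHA was lost without vehicle replicate 2 or 3 or DHA replicate 1 or 2 (edgeR adjusted p = 0.056, 0.28, 0.055 and 0.074).

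CDC25C, a phosphatase that switches on CDK1, was among the genes with the largest falls in sh-IGFBP6 cells, at low levels. CDC25C had 7.83, 7.56 and 3.81 CPM in sh-IGFBP6 cells with erastin, 6.01, 6.98 and 10 CPM with DHA and 17.2, 16 and 17 CPM with vehicle. The value of 3.81 CPM rests on 1 count, in the library that stood apart. CDC25C in sh-LUC cells had 7.69, 10.8 and 8.18 CPM with erastin, 21.4, 21.2 and 18.6 CPM with DHA and 20.2, 19.8 and 18.2 CPM with vehicle. CDC25C fell in sh-IGFBP6 cells with erastin (-1.12 on the log2 scale, SE 0.18, edgeR adjusted p = 2.9e-07) and with DHA (-1.12, SE 0.18, edgeR adjusted p = 6.1e-08), and its sh-LUC DHA libraries overlapped the vehicle libraries. NEK2, a kinase of centrosome separation, fell in sh-LUC cells with erastin by 1.45 on the log2 scale and CDC25B, the other phosphatase, by 0.81, the smallest fall of the 10.

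Of the 11 spindle checkpoint and anaphase genes, 10 fell with erastin in each line and with DHA in sh-IGFBP6 cells. The exception was BUB3, a checkpoint protein that loads BUB1 and BUB1B onto kinetochores and also binds spliceosome components. BUB3 had 322, 318 and 270 CPM in sh-IGFBP6 cells with erastin, 313, 331 and 338 CPM with DHA and 343, 366 and 324 CPM with vehicle. BUB3 in sh-LUC cells had 219, 206 and 205 CPM with erastin, 218, 222 and 235 CPM with DHA and 213, 211 and 229 CPM with vehicle. The groups of BUB3 overlapped in 3 of the 4 treatment comparisons, and none of the 4 called it. Its log2 fold change was -0.13 (SE 0.06, edgeR adjusted p = 0.1) with erastin in sh-IGFBP6 cells, where the libraries did not overlap, and -0.05 (SE 0.06, edgeR adjusted p = 0.49) with erastin in sh-LUC cells. Leaving out vehicle replicate 3 turned the sh-IGFBP6 value into a call (-0.18, edgeR adjusted p = 0.036). Its partners BUB1 and BUB1B had log2 fold changes with erastin of -0.75 and -0.61 in sh-IGFBP6 cells and -1.03 and -1.13 in sh-LUC cells.

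CDC20 activates the anaphase-promoting complex once the checkpoint is satisfied. CDC20 had 149, 148 and 87.6 CPM in sh-IGFBP6 cells with erastin, 139, 143 and 168 CPM with DHA and 250, 236 and 254 CPM with vehicle. CDC20 in sh-LUC cells had 52.9, 53.6 and 52.7 CPM with erastin, 140, 125 and 133 CPM with DHA and 127, 135 and 118 CPM with vehicle. CDC20 had a log2 fold change with erastin of -0.76 (SE 0.07, edgeR adjusted p = 1.9e-17) in sh-IGFBP6 cells and -1.25 (SE 0.08, edgeR adjusted p = 3e-30) in sh-LUC cells. It also fell with DHA in sh-IGFBP6 cells (-0.72, SE 0.07, edgeR adjusted p = 6.5e-18). PTTG1, the securin that this complex degrades, and ESPL1, the separase that securin inhibits, act together at the onset of anaphase. PTTG1 had 52.4, 52.5 and 41.9 CPM in sh-IGFBP6 cells with erastin, 42.3, 43.6 and 47.7 CPM with DHA and 69.6, 73.8 and 65.5 CPM with vehicle. PTTG1 in sh-LUC cells had 25.8, 25.6 and 22.4 CPM with erastin, 62.6, 55.9 and 53.5 CPM with DHA and 65.8, 62.5 and 63 CPM with vehicle. PTTG1 fell with erastin by 0.42 on the log2 scale in sh-IGFBP6 cells and by 1.37 in sh-LUC cells. ESPL1 had 65.4, 61.7 and 45.7 CPM in sh-IGFBP6 cells with erastin, 105, 94.8 and 99.9 CPM with DHA and 131, 127 and 129 CPM with vehicle. ESPL1 in sh-LUC cells had 46.6, 38.4 and 43.9 CPM with erastin, 149, 141 and 147 CPM with DHA and 115, 109 and 107 CPM with vehicle. With DHA, ESPL1 fell in sh-IGFBP6 cells (-0.38 on the log2 scale, SE 0.07, edgeR adjusted p = 4.5e-06) and rose in sh-LUC cells (0.40, SE 0.07, edgeR adjusted p = 7.7e-07), with no overlap of libraries in either line.

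UBE2C, the ubiquitin-conjugating enzyme of the anaphase-promoting complex, had the smallest called fall with DHA in sh-IGFBP6 cells. UBE2C had 102, 95.1 and 80 CPM in sh-IGFBP6 cells with erastin, 128, 138 and 139 CPM with DHA and 151, 149 and 156 CPM with vehicle. UBE2C in sh-LUC cells had 90.9, 99.3 and 88.5 CPM with erastin, 215, 210 and 202 CPM with DHA and 181, 172 and 180 CPM with vehicle. Its log2 fold change there was -0.17 (SE 0.07, edgeR adjusted p = 0.039). That call was lost when any of the 3 vehicle replicates or DHA replicate 1 or 2 was left out (edgeR adjusted p = 0.051 to 0.17). The other members of this group, MAD2L1 and TTK of the checkpoint and the shugoshins SGO1 and SGO2 that protect centromeric cohesion, fell with erastin by 0.50 to 0.80 on the log2 scale in sh-IGFBP6 cells and by 0.61 to 1.07 in sh-LUC cells. The call of MAD2L1 with DHA in sh-IGFBP6 cells, at -0.30, was lost without vehicle replicate 2 (edgeR adjusted p = 0.081).

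All 10 kinesins fell with erastin in both lines and with DHA in sh-IGFBP6 cells. KIF20A, which carries the chromosomal passenger complex to the spindle midzone, had the lowest log2 fold change of all 60 genes with erastin in sh-LUC cells and with DHA in both lines. KIF20A had 81.8, 67.8 and 64.8 CPM in sh-IGFBP6 cells with erastin, 65.8, 71 and 74.5 CPM with DHA and 165, 156 and 170 CPM with vehicle. KIF20A in sh-LUC cells had 41.9, 40.8 and 38.4 CPM with erastin, 140, 114 and 124 CPM with DHA and 159, 171 and 168 CPM with vehicle. KIF20A was the single member called lower with DHA in sh-LUC cells, where its libraries lay below all vehicle libraries, and that call was lost under scaling by library size alone (-0.35, edgeR adjusted p = 0.35). Its log2 fold change was -1.12 (SE 0.08, edgeR adjusted p = 2.2e-25) with erastin and -1.21 (SE 0.07, edgeR adjusted p = 6.4e-30) with DHA in sh-IGFBP6 cells. In sh-LUC cells the values were -2.05 (SE 0.08, edgeR adjusted p = 7.4e-50) with erastin and -0.41 (SE 0.07, edgeR adjusted p = 3.5e-07) with DHA.

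KIF22 is a kinesin of chromosome arms, and KIF18A dampens chromosome movements. Of the kinesins, KIF18A had the smallest fall with erastin in sh-IGFBP6 cells and KIF22 in sh-LUC cells. KIF22 had 64.7, 56.7 and 68.6 CPM in sh-IGFBP6 cells with erastin, 66.4, 59.6 and 72.3 CPM with DHA and 95.8, 87.3 and 89.8 CPM with vehicle. KIF22 in sh-LUC cells had 47.1, 48 and 41.3 CPM with erastin, 70.2, 67 and 69.5 CPM with DHA and 64, 58 and 57.5 CPM with vehicle. KIF22 had the smallest called fall of the kinesins with erastin in sh-LUC cells (log2 fold change -0.39, SE 0.09, edgeR adjusted p = 9.4e-05). KIF18A had 44.7, 43.7 and 30.5 CPM in sh-IGFBP6 cells with erastin, 28.2, 43.6 and 31.6 CPM with DHA and 56.6, 55.9 and 59.1 CPM with vehicle. KIF18A in sh-LUC cells had 49, 45.2 and 45.8 CPM with erastin, 66.2, 62.9 and 63.2 CPM with DHA and 66.9, 79.4 and 76.4 CPM with vehicle. The log2 fold change of KIF18A was -0.38 with erastin and -0.66 with DHA in sh-IGFBP6 cells and -0.68 with erastin in sh-LUC cells, all called. With DHA in sh-LUC cells the KIF18A libraries lay below the vehicle libraries, at a log2 fold change of -0.22 (SE 0.08, edgeR adjusted p = 0.055). KIF11, the motor that keeps the spindle bipolar, KIF14, KIF15, KIF20B, KIF23 of the central spindle and KIF4A fell with erastin by 0.43 to 0.90 in sh-IGFBP6 cells and by 0.51 to 1.03 in sh-LUC cells. KIF2C, which depolymerises microtubules at centromeres, fell with DHA in sh-IGFBP6 cells by 0.69 and rose in sh-LUC cells by 0.22 (edgeR adjusted p = 0.022), a rise that was lost without vehicle replicate 1 or 3 or DHA replicate 1 (edgeR adjusted p = 0.14, 0.075 and 0.17).

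The 13 centromere and kinetochore genes all fell with erastin in both lines and with DHA in sh-IGFBP6 cells. CENPA encodes the histone H3 variant that defines the centromere. CENPA had 18.8, 19.3 and 3.81 CPM in sh-IGFBP6 cells with erastin, 15.6, 19.5 and 20.3 CPM with DHA and 31.6, 33.5 and 35.2 CPM with vehicle. CENPA in sh-LUC cells had 7.98, 10.5 and 9.2 CPM with erastin, 32.7, 30.3 and 27.6 CPM with DHA and 34.3, 28.9 and 25.6 CPM with vehicle. The last sh-IGFBP6 erastin value of CENPA rests on 1 count, in the library that stood apart. CENPA fell with erastin in sh-IGFBP6 cells (-0.85 on the log2 scale, SE 0.13, edgeR adjusted p = 7.9e-08) and in sh-LUC cells (-1.65, SE 0.14, edgeR adjusted p = 8.8e-20).

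SPC24, a subunit of the NDC80 complex that binds microtubules, was called in opposite directions with DHA in the lines. SPC24 had 15.5, 14.3 and 0 CPM in sh-IGFBP6 cells with erastin, 21, 19.3 and 25.8 CPM with DHA and 34, 30.8 and 36.2 CPM with vehicle. SPC24 in sh-LUC cells had 27.1, 22.2 and 26.1 CPM with erastin, 92.8, 86.7 and 80.4 CPM with DHA and 62.6, 63.7 and 55.8 CPM with vehicle. The 0 in sh-IGFBP6 erastin replicate 3 allows up to 11.4 CPM, the level of 3 counts there, for counting error only. With DHA the log2 fold change of SPC24 was -0.63 (SE 0.12, edgeR adjusted p = 1.5e-05) in sh-IGFBP6 cells and 0.52 (SE 0.09, edgeR adjusted p = 7.2e-07) in sh-LUC cells, with no overlap between treated and vehicle libraries in either line. Its partners NDC80, NUF2 and SPC25 had log2 fold changes with DHA of -0.92, -0.68 and -0.68 in sh-IGFBP6 cells, all called, and 0.04, 0.04 and 0.06 in sh-LUC cells, none called.

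INCENP, the scaffold of the chromosomal passenger complex, had a small fall with DHA in sh-IGFBP6 cells. INCENP had 113, 113 and 103 CPM in sh-IGFBP6 cells with erastin, 143, 143 and 148 CPM with DHA and 166, 156 and 176 CPM with vehicle. INCENP in sh-LUC cells had 56.4, 54.4 and 57.7 CPM with erastin, 139, 136 and 124 CPM with DHA and 132, 115 and 106 CPM with vehicle. Its log2 fold change with DHA was -0.20 (SE 0.07, edgeR adjusted p = 0.013) in sh-IGFBP6 cells and 0.19 (SE 0.07, edgeR adjusted p = 0.043) in sh-LUC cells. The sh-IGFBP6 call was lost without vehicle replicate 3 or DHA replicate 2 (edgeR adjusted p = 0.076 and 0.057), and the sh-LUC call without vehicle replicate 2 or 3, DHA replicate 1 or 2 or erastin replicate 2, which shares the dispersion estimate (edgeR adjusted p = 0.051 to 0.4). BIRC5 and CDCA8, which encode survivin and borealin of the same complex, had log2 fold changes with DHA of -0.78 and -0.72 in sh-IGFBP6 cells, both called, and -0.07 and 0.09 in sh-LUC cells, neither called. CENPE, a kinetochore motor, CENPF, KNL1, ZWINT and the CENPA chaperone gene HJURP had log2 fold changes with erastin of -0.88 to -0.51 in sh-IGFBP6 cells and -0.99 to -0.77 in sh-LUC cells.

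Among the 11 genes of spindle assembly and cytokinesis, 10 fell with erastin in sh-IGFBP6 cells, 9 with erastin in sh-LUC cells and 9 with DHA in sh-IGFBP6 cells. DLGAP5, which stabilises kinetochore microtubules, had one of the 3 falls of at least 2-fold with DHA in sh-IGFBP6 cells, beside KIF20A and CDC25C. DLGAP5 had 54, 66.8 and 87.6 CPM in sh-IGFBP6 cells with erastin, 46, 57.5 and 42.9 CPM with DHA and 114, 108 and 104 CPM with vehicle. DLGAP5 in sh-LUC cells had 43.4, 43.8 and 39.4 CPM with erastin, 107, 99.2 and 115 CPM with DHA and 124, 109 and 119 CPM with vehicle. DLGAP5 had a log2 fold change of -1.11 (SE 0.09, edgeR adjusted p = 3.2e-21) with DHA in sh-IGFBP6 cells and -1.48 (SE 0.08, edgeR adjusted p = 7.3e-31) with erastin in sh-LUC cells. CKAP2, a spindle microtubule protein, had the smallest called fall of the group with erastin in sh-IGFBP6 cells. CKAP2 had 80.6, 80.6 and 57.1 CPM in sh-IGFBP6 cells with erastin, 70, 78 and 63.2 CPM with DHA and 109, 98.3 and 112 CPM with vehicle. CKAP2 in sh-LUC cells had 64.4, 67.8 and 73.9 CPM with erastin, 128, 126 and 140 CPM with DHA and 138, 145 and 143 CPM with vehicle. Its log2 fold change with erastin was -0.41 (SE 0.08, edgeR adjusted p = 1.6e-05) in sh-IGFBP6 cells and -1.05 (SE 0.07, edgeR adjusted p = 1.6e-26) in sh-LUC cells.

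HMMR, a spindle protein also known as a hyaluronan receptor, had the highest log2 fold change of the set with DHA in sh-LUC cells, at low levels. HMMR had 16.9, 14.5 and 3.81 CPM in sh-IGFBP6 cells with erastin, 15.3, 14.7 and 12 CPM with DHA and 25.9, 26.6 and 21.2 CPM with vehicle. The value of 3.81 CPM rests on 1 count, in the library that stood apart. HMMR in sh-LUC cells had 8.41, 5.33 and 5.11 CPM with erastin, 12.9, 12.3 and 14.6 CPM with DHA and 9.55, 5.71 and 11.7 CPM with vehicle. With DHA its log2 fold change was -0.81 (SE 0.15, edgeR adjusted p = 5.7e-06) in sh-IGFBP6 cells and 0.53 (SE 0.19, edgeR adjusted p = 0.037) in sh-LUC cells, and libraries did not overlap in either line. The sh-LUC DHA call was lost without vehicle replicate 1 or 2 or DHA replicate 1 or 3 (edgeR adjusted p = 0.068, 0.41, 0.052 and 0.12). Its fall with erastin in sh-LUC cells (-0.56, SE 0.21, edgeR adjusted p = 0.025), where the libraries overlapped, was lost without vehicle replicate 1 or 3 or erastin replicate 2 or 3 (edgeR adjusted p = 0.065, 0.46, 0.1 and 0.12).

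PRC1, which bundles microtubules in the spindle midzone, and NUSAP1, a spindle microtubule protein, had the lowest levels of the set. PRC1 had 0.945, 1.89 and 3.81 CPM in sh-IGFBP6 cells with erastin, 2.4, 2.47 and 2.51 CPM with DHA and 4.82, 4.05 and 3.45 CPM with vehicle. PRC1 in sh-LUC cells had 2.32, 3.73 and 3.45 CPM with erastin, 5.81, 5.44 and 5.46 CPM with DHA and 4.95, 4.81 and 4.31 CPM with vehicle. PRC1 was called lower with erastin in sh-IGFBP6 cells (log2 fold change -1.54, SE 0.38, edgeR adjusted p = 0.00077) although its libraries overlapped, and the call was lost without erastin replicate 1 (-1.03, edgeR adjusted p = 0.11). The value of 3.81 CPM rests on 1 count. PRC1 was not called with erastin in sh-LUC cells (-0.54, SE 0.28, edgeR adjusted p = 0.11) or with DHA in sh-IGFBP6 cells (-0.71, SE 0.32, edgeR adjusted p = 0.076). NUSAP1 had 1.49, 0.21 and 0 CPM in sh-IGFBP6 cells with erastin, 1.8, 1.89 and 1.51 CPM with DHA and 2.71, 0.964 and 2.22 CPM with vehicle. NUSAP1 in sh-LUC cells had 2.61, 2 and 1.92 CPM with erastin, 2.32, 2.43 and 2.18 CPM with DHA and 2.48, 3.01 and 2.16 CPM with vehicle. NUSAP1 was called in none of the 4, with log2 fold changes of -0.92 (SE 0.52, edgeR adjusted p = 0.18) with erastin and -0.06 (SE 0.44, edgeR adjusted p = 0.94) with DHA in sh-IGFBP6 cells and -0.22 (SE 0.38, edgeR adjusted p = 0.67) with erastin in sh-LUC cells. Also in this group, ANLN of the contractile ring fell with DHA in sh-IGFBP6 cells by a log2 fold change of -0.97. TACC3 of the spindle poles had -0.33. Between them lay TPX2, the activator of AURKA (-0.72), ASPM (-0.86), and ECT2 (-0.85) and RACGAP1 (-0.63), which place the cleavage furrow, all called.

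TOP2A, the topoisomerase that untangles sister chromatids, and MKI67, which encodes the proliferation antigen Ki-67, were abundant in every group. TOP2A had 363, 337 and 293 CPM in sh-IGFBP6 cells with erastin, 345, 373 and 336 CPM with DHA and 590, 580 and 598 CPM with vehicle. TOP2A in sh-LUC cells had 346, 381 and 352 CPM with erastin, 885, 866 and 884 CPM with DHA and 830, 895 and 903 CPM with vehicle. The DHA and vehicle libraries of TOP2A overlapped in sh-LUC cells and were apart in sh-IGFBP6 cells. MKI67 had 530, 477 and 465 CPM in sh-IGFBP6 cells with erastin, 537, 562 and 495 CPM with DHA and 891, 856 and 939 CPM with vehicle. MKI67 in sh-LUC cells had 426, 435 and 406 CPM with erastin, 1020, 932 and 927 CPM with DHA and 1020, 993 and 934 CPM with vehicle. With DHA, TOP2A had a log2 fold change of -0.74 (SE 0.06, edgeR adjusted p = 1.7e-23) in sh-IGFBP6 cells and 0.00 (SE 0.05, edgeR adjusted p = 0.99) in sh-LUC cells, and MKI67 had -0.75 (SE 0.06, edgeR adjusted p = 1.5e-23) and -0.03 (SE 0.05, edgeR adjusted p = 0.76) in the same order. With erastin the log2 fold changes of TOP2A were -0.78 (SE 0.06, edgeR adjusted p = 1.4e-22) in sh-IGFBP6 cells and -1.28 (SE 0.05, edgeR adjusted p = 3.3e-44) in sh-LUC cells. LMNB1 encodes lamin B1 of the nuclear envelope. LMNB1 had 163, 142 and 130 CPM in sh-IGFBP6 cells with erastin, 157, 165 and 175 CPM with DHA and 272, 249 and 273 CPM with vehicle. LMNB1 in sh-LUC cells had 115, 128 and 135 CPM with erastin, 220, 201 and 211 CPM with DHA and 203, 226 and 201 CPM with vehicle. LMNB1 fell with erastin in sh-IGFBP6 cells (-0.80 on the log2 scale, SE 0.07, edgeR adjusted p = 1.7e-19) and in sh-LUC cells (-0.74, SE 0.06, edgeR adjusted p = 1.2e-19).

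FOXM1 and MYBL2 encode the transcription factors of this set. FOXM1 had 121, 117 and 72.4 CPM in sh-IGFBP6 cells with erastin, 119, 113 and 110 CPM with DHA and 163, 165 and 177 CPM with vehicle. FOXM1 in sh-LUC cells had 87.3, 103 and 80.9 CPM with erastin, 204, 200 and 193 CPM with DHA and 217, 185 and 187 CPM with vehicle. FOXM1 had a log2 fold change with erastin of -0.53 (SE 0.08, edgeR adjusted p = 5.6e-09) in sh-IGFBP6 cells and -1.11 (SE 0.07, edgeR adjusted p = 3.3e-28) in sh-LUC cells. With DHA it fell in sh-IGFBP6 cells (-0.56, SE 0.07, edgeR adjusted p = 6.6e-11), and its sh-LUC DHA and vehicle libraries overlapped. MYBL2 had 81.4, 75.4 and 83.8 CPM in sh-IGFBP6 cells with erastin, 93.7, 83.4 and 89.6 CPM with DHA and 101, 105 and 119 CPM with vehicle. MYBL2 in sh-LUC cells had 53.7, 54.4 and 47.3 CPM with erastin, 106, 96 and 95.8 CPM with DHA and 80.7, 73.6 and 73.1 CPM with vehicle. MYBL2 fell with DHA in sh-IGFBP6 cells (-0.30 on the log2 scale, SE 0.07, edgeR adjusted p = 0.00059) and rose in sh-LUC cells (0.39, SE 0.08, edgeR adjusted p = 2.7e-05), with no overlap in either line.

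**Figure D3:**
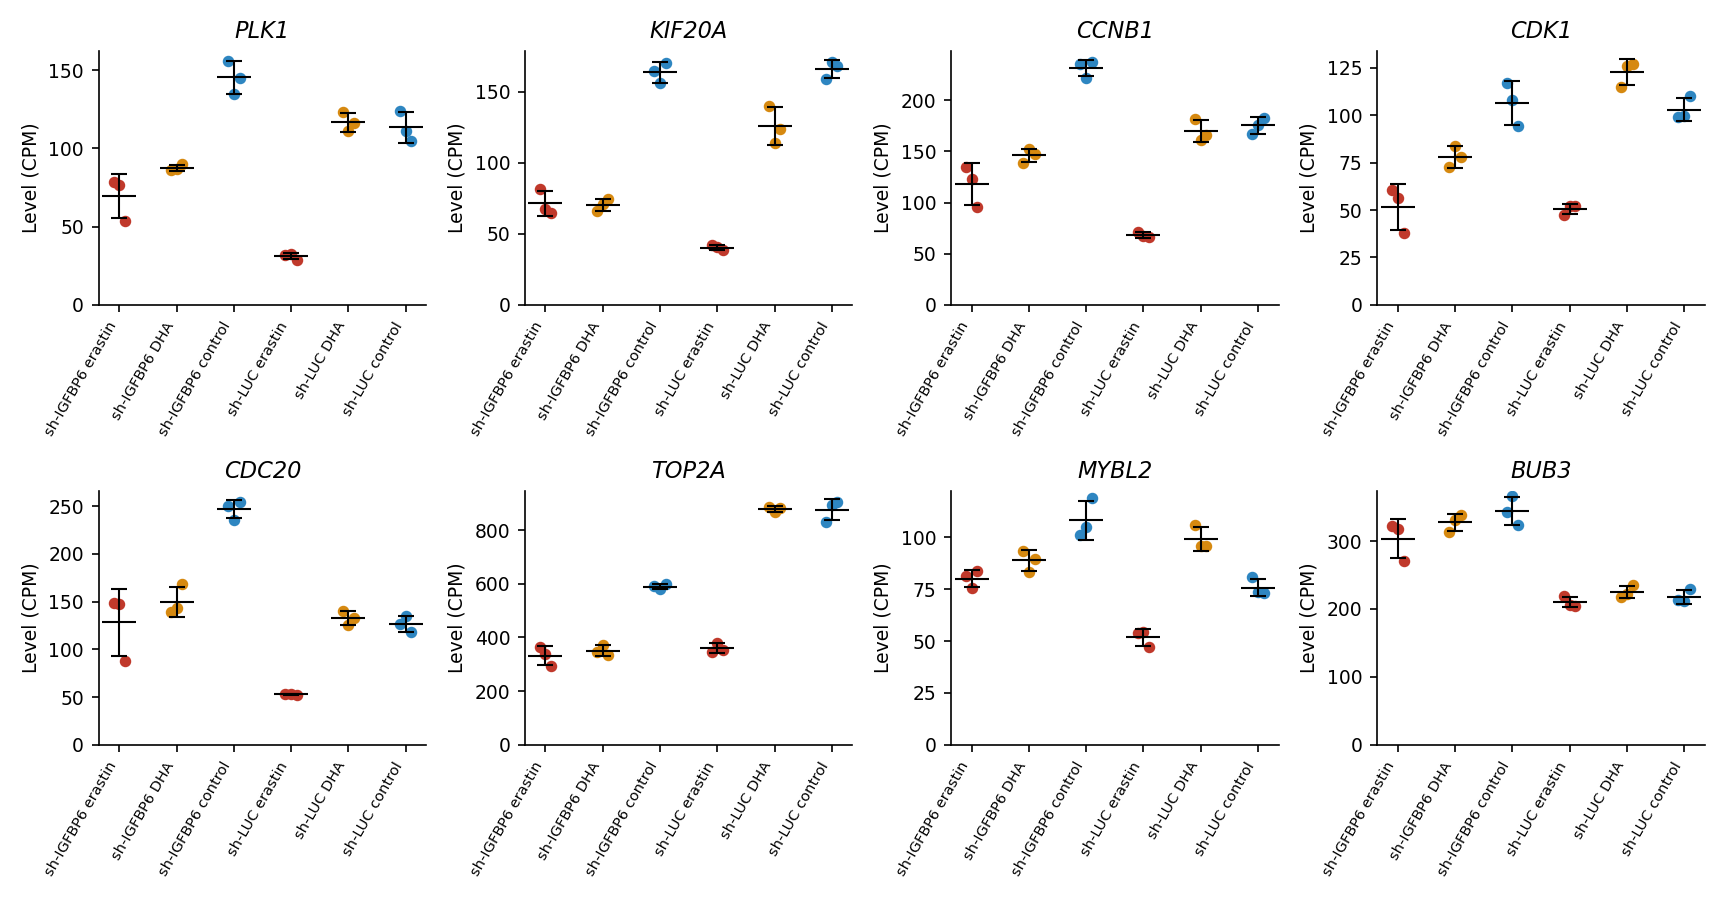
Level in CPM (vertical axes, from 0) of 8 genes in each library of the 6 groups, with mean and SD of 3. PLK1, KIF20A, CCNB1, CDC20 and TOP2A are low with erastin in both lines and with DHA in sh-IGFBP6 cells, CDK1 and MYBL2 are also above vehicle with DHA in sh-LUC cells, and BUB3 lies at 270 CPM or more in every sh-IGFBP6 library and at 235 CPM or less in every sh-LUC library.

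The promoters of 4 members are shown. PLK1 and CCNB2 were taken because they carry both promoter elements known from genes of the late cell cycle, so their matches are an illustration only. KIF20A had the lowest log2 fold change in 3 of the 4 treatment comparisons, and MYBL2 rose with DHA in sh-LUC cells. The elements searched on both strands were TTTGAA, the core of the cell cycle genes homology region, and CCAAT, the box bound by NF-Y. Each sequence runs 5′ to 3′ on the plus strand from 250 bases before to 50 bases after the gene's start in RefSeq (GRCh38.p14), and capitals mark matches to either element, read on the minus strand as TTCAAA or ATTGG. PLK1 is at chr16:23678639-23678938, CCNB2 at chr15:59104896-59105195, KIF20A at chr5:138178862-138179161 and MYBL2 at chr20:43666864-43667163.
PLK1: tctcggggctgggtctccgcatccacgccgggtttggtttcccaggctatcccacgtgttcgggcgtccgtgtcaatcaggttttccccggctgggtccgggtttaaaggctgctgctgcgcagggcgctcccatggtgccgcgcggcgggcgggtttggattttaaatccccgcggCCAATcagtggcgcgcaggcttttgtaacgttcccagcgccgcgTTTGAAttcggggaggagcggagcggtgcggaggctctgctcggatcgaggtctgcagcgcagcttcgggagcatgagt
CCNB2: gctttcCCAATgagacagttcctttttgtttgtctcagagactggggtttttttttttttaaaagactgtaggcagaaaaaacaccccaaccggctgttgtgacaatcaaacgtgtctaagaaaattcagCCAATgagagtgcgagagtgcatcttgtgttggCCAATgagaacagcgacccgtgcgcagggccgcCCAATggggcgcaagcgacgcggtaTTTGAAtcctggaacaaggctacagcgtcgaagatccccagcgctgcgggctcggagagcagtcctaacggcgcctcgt
KIF20A: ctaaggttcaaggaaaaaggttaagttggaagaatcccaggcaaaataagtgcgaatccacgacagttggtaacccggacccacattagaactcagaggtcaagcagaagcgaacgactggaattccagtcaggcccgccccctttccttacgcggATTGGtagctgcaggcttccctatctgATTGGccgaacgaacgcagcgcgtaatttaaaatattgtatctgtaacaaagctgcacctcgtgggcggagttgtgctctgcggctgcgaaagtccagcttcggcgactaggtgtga
MYBL2: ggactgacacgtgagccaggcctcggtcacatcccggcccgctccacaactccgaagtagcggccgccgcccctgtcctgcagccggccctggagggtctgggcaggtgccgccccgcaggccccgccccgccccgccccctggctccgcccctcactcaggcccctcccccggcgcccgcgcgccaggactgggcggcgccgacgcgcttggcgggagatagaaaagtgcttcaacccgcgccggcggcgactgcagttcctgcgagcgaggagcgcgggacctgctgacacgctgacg
PLK1 and CCNB2 hold 1 TTTGAA each, with 1 CCAAT box in PLK1 and 4 in CCNB2. KIF20A holds 2 CCAAT boxes and no TTTGAA, and MYBL2 holds neither.

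RefSeq promoters were matched for 51 of the 60 genes, without TPX2, KNL1, TTK, UBE2C, AURKA, BIRC5, BUB3, FOXM1 and RACGAP1. TTTGAA was found in 32 of the 51 (62.7%), against 15.4% of all 27305 promoters of the same length, and within 50 bases of the start in 26 (51%), against 4.67%. CCAAT was found in 38 (74.5%) against 35.7%, and both elements in 27 (52.9%) against 6.08%. TTCCCGC, a site of the E2F type that is typical of genes of the G1/S transition, was found in 4 (7.84%) against 6.56%. The shares over all promoters are given as a description. The median log2 fold changes of members with and without TTTGAA were -0.689 (32 genes) and -0.67 (19 genes) with DHA in sh-IGFBP6 cells and -1.02 and -1.05 with erastin in sh-LUC cells.

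The lines were next compared without treatment, which asks how far the IGFBP6 hairpin line differs in these genes from the control hairpin line. The set did not move one way: 22 members were lower, 19 higher and 19 not called in sh-IGFBP6 cells. Over all genes 32.1% were lower and 32.5% higher, so both counts lay close to the shares over all genes. The median log2 fold change of the members was -0.06, or 0.04 when scaled by library size alone, where 8 members were lower and 15 higher. CDC20 was higher in untreated sh-IGFBP6 cells than in sh-LUC cells (log2 fold change 0.96, SE 0.07, edgeR adjusted p = 1.7e-25). HMMR had 25.9, 26.6 and 21.2 CPM in sh-IGFBP6 cells against 9.55, 5.71 and 11.7 CPM in sh-LUC cells (log2 fold change 1.42, SE 0.18, edgeR adjusted p = 1e-11). KIF2C had 168, 162 and 170 CPM in sh-IGFBP6 cells against 86.3, 100 and 93.4 CPM in sh-LUC cells (log2 fold change 0.83, SE 0.07, edgeR adjusted p = 7.2e-20). None of these 3 genes had overlapping libraries.

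At the other end were CDC25B, ASPM of the spindle poles, and KIF4A, a kinesin of chromosome arms and the midzone. CDC25B had 115, 106 and 111 CPM in sh-IGFBP6 cells against 259, 264 and 226 CPM in sh-LUC cells (log2 fold change -1.17, SE 0.07, edgeR adjusted p = 1.6e-30). ASPM had 175, 169 and 167 CPM in sh-IGFBP6 cells against 345, 349 and 379 CPM in sh-LUC cells (log2 fold change -1.07, SE 0.06, edgeR adjusted p = 1.5e-30). KIF4A had 52.4, 47 and 48.7 CPM in sh-IGFBP6 cells against 89.9, 98.6 and 93 CPM in sh-LUC cells (log2 fold change -0.94, SE 0.09, edgeR adjusted p = 1.8e-18). No library of either line overlapped those of the other for these 3 genes. TOP2A (-0.57, SE 0.05, edgeR adjusted p = 6.5e-18) and SPC24 (-0.85, SE 0.11, edgeR adjusted p = 8e-12) were also lower in sh-IGFBP6 cells, and BUB3 (0.66, SE 0.06, edgeR adjusted p = 1.6e-19), BUB1 (0.60, SE 0.06, edgeR adjusted p = 3.2e-16) and MYBL2 (0.52, SE 0.08, edgeR adjusted p = 5e-09) were higher. CDK1 (0.03, SE 0.08, edgeR adjusted p = 0.71) and AURKB (-0.04, SE 0.08, edgeR adjusted p = 0.68) were not called. The call of MKI67 (-0.13, SE 0.06, edgeR adjusted p = 0.028) was lost in 5 of the fits that left out 1 library (edgeR adjusted p = 0.068 to 0.17).

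Several members lay among neighbours that differed in the same direction, and others did not. Each member's log2 fold change was set beside the median of the other tested genes within 5 Mb on either side (GENCODE 29, GRCh38). ASPM (chromosome 1, 197084128 to 197146694) had a median of -1.07 over 31 neighbours, of which 80.6% were lower and 3.23% higher in sh-IGFBP6 cells. KIF14 (chromosome 1, 200551497 to 200620734) had -0.57 itself and a median of -1.13 over 66 neighbours. SPC24 on chromosome 19 lay among 197 neighbours with a median of -0.717, and KIF4A on chromosome X among 41 with -0.688. CDC20 on chromosome 1 lay among 111 neighbours with a median of 0.453, of which 58.6% were higher. HMMR on chromosome 5 was high among 13 neighbours with a median of -0.0772. Other called members also went against their neighbours, among them TOP2A (-0.573, neighbour median 0.289), ANLN (-0.689, 0.138) and ECT2 (0.588, -0.154). Over the 60 members the correlation with the neighbours' median was 0.60 by Pearson and 0.61 by Spearman, given as a description because members near each other, such as ASPM and KIF14, share neighbours and all points share the same 6 libraries.

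**Figure D4:**
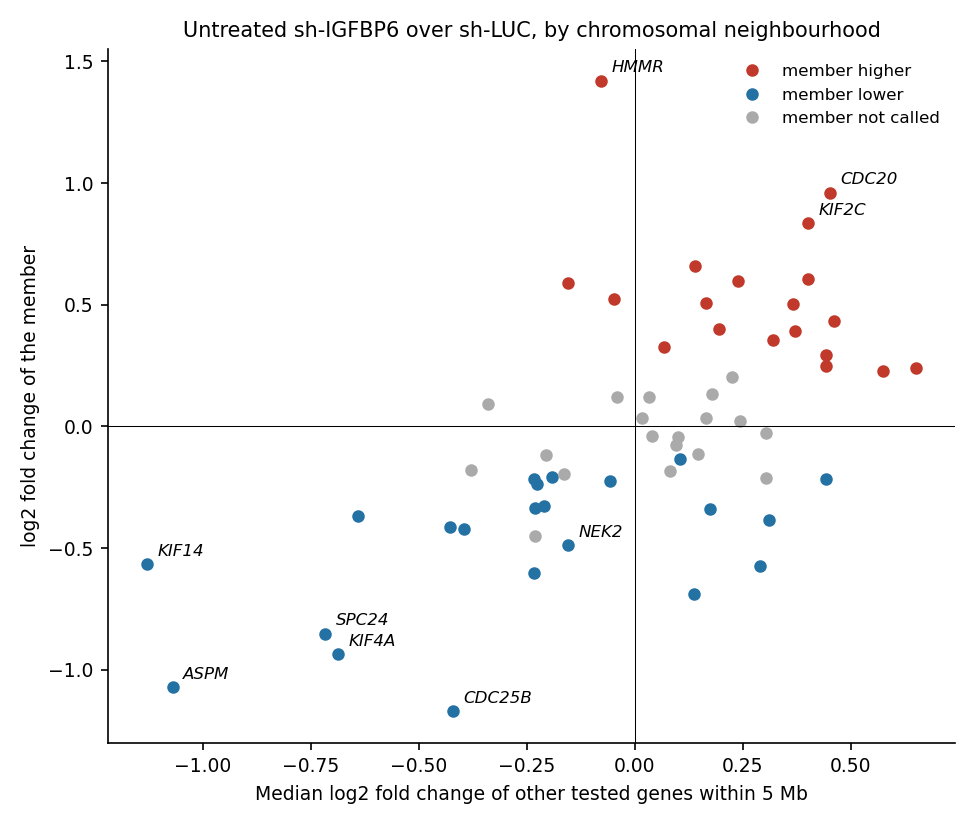
log2 fold change of each of the 60 genes in untreated sh-IGFBP6 over sh-LUC cells (vertical axis) against the median log2 fold change of the other tested genes within 5 Mb (horizontal axis). Colour gives the call of the member. ASPM, KIF14, KIF4A and SPC24 lie at lower left with neighbour medians of -0.688 or less, CDC20 and KIF2C at upper right, and HMMR lies high at a neighbour median of -0.0772.

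The 2 lines were then compared in their responses, as the response of sh-IGFBP6 cells minus that of sh-LUC cells. For DHA the difference was called lower for 57 members and higher for none, where 10.2% of all genes were lower and 10.4% higher, with a median of -0.72. The 3 members without a call were BUB3 (-0.12, SE 0.08, edgeR adjusted p = 0.33), NUSAP1 (0.06, SE 0.58, edgeR adjusted p = 0.97) and PRC1 (-0.97, SE 0.41, edgeR adjusted p = 0.083). Of the members that fell with DHA in sh-IGFBP6 cells, 46 were not called and 10 were called higher in sh-LUC cells: CDK1, AURKB, UBE2C, ESPL1, KIF2C, INCENP, SPC24, HMMR, TACC3 and MYBL2. Of those 10 higher calls, 1 remained under scaling by library size alone and DESeq2 made 4 higher calls among the 60 genes. The remaining member was KIF20A, lower in both lines, with a difference of -0.80 (SE 0.10, edgeR adjusted p = 7.3e-11). HMMR (-1.33, SE 0.24, edgeR adjusted p = 4.8e-06), CDC25C (-1.20, SE 0.22, edgeR adjusted p = 8.8e-06) and SPC24 (-1.15, SE 0.15, edgeR adjusted p = 6.2e-10) had the lowest differences, and INCENP (-0.39, SE 0.09, edgeR adjusted p = 0.001) the smallest among those called. Leaving out any 1 library kept 56 or 57 members called lower, and scaling by library size alone left 41.

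For erastin the difference was called for fewer members and in the other direction: 29 were higher and 0 lower, where 14.1% of all genes were higher and 12.0% lower, with a median of 0.27. A positive value means that the fall was smaller in sh-IGFBP6 cells. PTTG1 (0.95, SE 0.13, edgeR adjusted p = 2.5e-09), PLK1 (0.94, SE 0.11, edgeR adjusted p = 1.5e-11) and KIF20A (0.93, SE 0.11, edgeR adjusted p = 6.8e-12) had the highest differences, followed by NUF2 (0.84) and CENPA (0.80). For TOP2A it was 0.51 (SE 0.08, edgeR adjusted p = 1.2e-07), and for CDK1 0.17 (SE 0.12, edgeR adjusted p = 0.32), which was not called. The lowest were PRC1 (-1.005, SE 0.48, edgeR adjusted p = 0.12), NUSAP1 (-0.70, SE 0.64, edgeR adjusted p = 0.46) and KIF22 (-0.17, SE 0.12, edgeR adjusted p = 0.34), none of them called. The count rests on the sh-IGFBP6 erastin libraries: it was 26 without replicate 3, the library that stood apart, and 15 without replicate 1. It was 18 with DESeq2, 17 without a filter on low counts and 4 under scaling by library size alone, when PTTG1 and PLK1 kept their calls and KIF20A did not (0.77, edgeR adjusted p = 0.053). For the 0 lower, DESeq2 also called 0, and 1 member, PRC1, was lower at an unadjusted p below 0.05.

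**Figure D5:**
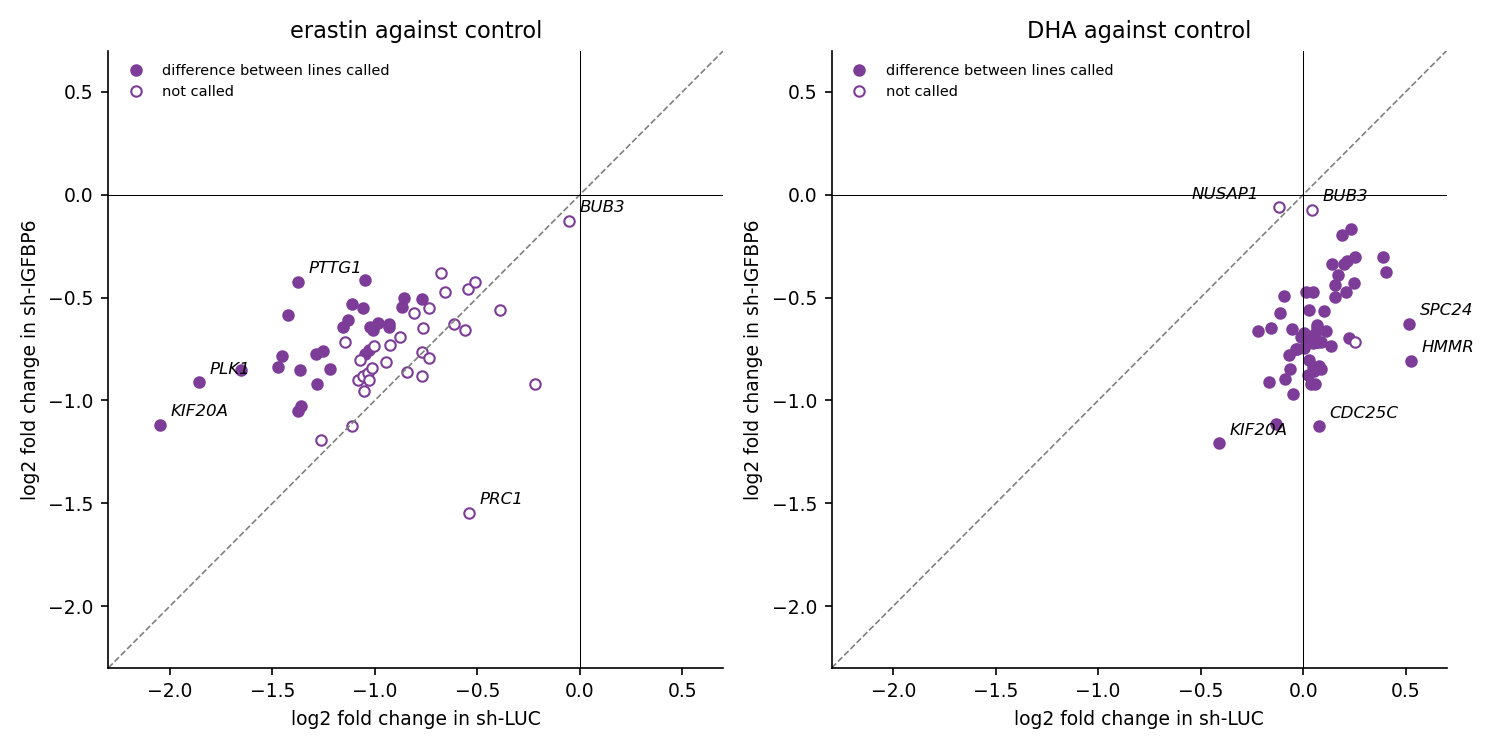
log2 fold change in sh-IGFBP6 cells (vertical axes) against that in sh-LUC cells (horizontal axes) for the 60 genes with erastin (left) and DHA (right). The dashed line marks equal responses and filled points are genes whose difference between lines was called. With erastin 29 genes are filled and above the line, among them PTTG1, PLK1 and KIF20A, and with DHA 57 are filled and below it.

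Within sh-IGFBP6 cells DHA and erastin were compared directly: 8 members were lower and 13 higher with DHA than with erastin, with a median of 0.04. Over all genes 12.8% were lower and 13.1% higher, so the 8 lower lay close to that share. ESPL1 (0.65, SE 0.08, edgeR adjusted p = 5.5e-11), SPC24 (0.56, SE 0.15, edgeR adjusted p = 0.0022), AURKB (0.54, SE 0.09, edgeR adjusted p = 4.2e-07) and CDK1 (0.44, SE 0.09, edgeR adjusted p = 2.9e-05) were higher with DHA. CENPE (-0.28, SE 0.09, edgeR adjusted p = 0.0089), KIF18A (-0.28, SE 0.11, edgeR adjusted p = 0.041) and ANLN (-0.28, SE 0.06, edgeR adjusted p = 0.00022) were lower. NUSAP1 (0.86, SE 0.51, edgeR adjusted p = 0.22) and PRC1 (0.83, SE 0.42, edgeR adjusted p = 0.14) had the highest values without a call. Of the lower calls, 2 or 3 were left without erastin replicate 1 or 2 or DHA replicate 1 or 3, and without erastin replicate 3 there were 10 lower and 10 higher. Scaling by library size alone gave 0 lower and 7 higher, so that CENPE, KIF18A and ANLN lost their calls, and DESeq2 gave 3 lower, ANLN among them but not CENPE or KIF18A. CENPE had 59.8, 67.8 and 57.2 CPM with DHA against 78.3, 74.1 and 64.8 CPM with erastin. ANLN had 180, 202 and 173 CPM with DHA against 217, 233 and 236 CPM with erastin. The libraries of ANLN did not overlap and those of CENPE did.

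In sh-LUC cells 58 members were higher with DHA than with erastin and none lower, where 26.0% of all genes were higher and 24.2% lower, with a median of 1.09. PLK1 (1.90, SE 0.08, edgeR adjusted p = 2.3e-47), SPC24 (1.78, SE 0.09, edgeR adjusted p = 2.9e-38) and ESPL1 (1.76, SE 0.07, edgeR adjusted p = 7.1e-48) had the highest values. BUB3 (0.10, SE 0.06, edgeR adjusted p = 0.13) and NUSAP1 (0.10, SE 0.32, edgeR adjusted p = 0.82) were not called, and KIF18A (0.46, SE 0.08, edgeR adjusted p = 3.7e-07) had the lowest value among those called. Doses of the compounds differ in kind, so this sets 200 µM DHA beside 2.5 µM erastin and no matched doses.

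Other genes of mitosis outside the 60 were read from the same fits, 113 tested of 114 listed. With erastin 73 were lower and 3 higher in sh-IGFBP6 cells and 69 lower and 10 higher in sh-LUC cells. Over all genes 14.3% were lower and 14.7% higher in sh-IGFBP6 cells, and 24.4% and 21.4% in sh-LUC cells. With DHA 61 of these mitosis genes were lower and 4 higher in sh-IGFBP6 cells, and 2 lower and 22 higher in sh-LUC cells. Over all genes 16.8% were lower and 17.4% higher with DHA in sh-IGFBP6 cells, and 9.63% and 7.14% in sh-LUC cells. All 8 condensin subunits, which compact chromosomes, fell with erastin in sh-IGFBP6 cells and 7 of 8 in sh-LUC cells, among them NCAPD2, at -0.71 (SE 0.06, edgeR adjusted p = 3.7e-20) in sh-IGFBP6 cells and -1.22 (SE 0.06, edgeR adjusted p = 3.1e-39) in sh-LUC cells. Of 27 further spindle, midbody and mitotic regulators, 27 fell with erastin in sh-IGFBP6 cells, 25 with erastin in sh-LUC cells and 23 with DHA in sh-IGFBP6 cells, including KIF18B with erastin in sh-LUC cells (-1.21, SE 0.07, edgeR adjusted p = 3.6e-32) and PSRC1 with DHA in sh-IGFBP6 cells (-1.25, SE 0.11, edgeR adjusted p = 4.2e-20).

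Cohesin subunits and cofactors, which hold sister chromatids together and act outside mitosis too, had 3 of 10 lower and 2 higher with erastin in sh-IGFBP6 cells, and 4 lower and 3 higher in sh-LUC cells. Over all genes 14.3% were lower and 14.7% higher in sh-IGFBP6 cells and 24.4% and 21.4% in sh-LUC cells, within a few genes of these counts. Of the 17 anaphase-promoting complex genes, 7 were lower and none higher with erastin in sh-IGFBP6 cells, and 9 lower and 2 higher in sh-LUC cells. The lowest log2 fold change there was that of FBXO5, which encodes an inhibitor of the complex, at -0.85 (SE 0.11, edgeR adjusted p = 1e-10) in sh-IGFBP6 cells and -1.17 (SE 0.10, edgeR adjusted p = 1.9e-20) in sh-LUC cells. Of 10 genes of the DREAM and MYBL2 complex other than MYBL2, 4 were lower and 1 higher with erastin in sh-IGFBP6 cells and 3 lower and 2 higher in sh-LUC cells, the sh-LUC counts being close to the shares over all genes.

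DNA replication and G1/S genes, 39 in number, were set beside the members as another phase of the cycle. With erastin 32 were lower and none higher in sh-IGFBP6 cells (median log2 fold change -0.46), against 15 lower and 5 higher in sh-LUC cells (-0.10). Over all genes 14.3% were lower and 14.7% higher with erastin in sh-IGFBP6 cells, and 24.4% and 21.4% in sh-LUC cells. The 5 higher lay below that last share. With DHA 31 replication genes were lower and 1 higher in sh-IGFBP6 cells, where 16.8% of all genes were lower and 17.4% higher. In sh-LUC cells 1 was lower and 9 higher with DHA, where 9.63% of all genes were lower and 7.14% higher. The difference between lines in the erastin response was lower for 22 replication genes and higher for none (median -0.35), whereas it was higher for 29 of the 60 members. Over all genes that difference was lower for 12.0% and higher for 14.1%. Untreated, 20 replication genes were higher and 8 lower in sh-IGFBP6 cells, where 32.5% of all genes were higher and 32.1% lower. Their summed level was 3203, 3061 and 2914 CPM with erastin, 3452, 3488 and 3493 CPM with DHA and 4318, 4187 and 4420 CPM with vehicle in sh-IGFBP6 cells. In sh-LUC cells the same sum was 3022, 3178 and 3218 CPM with erastin, 3681, 3374 and 3711 CPM with DHA and 3316, 3299 and 3241 CPM with vehicle. CDKN1A, which encodes the inhibitor p21 of cyclin-dependent kinases, had log2 fold changes of 2.12 (SE 0.08, edgeR adjusted p = 2.2e-48) with erastin and 1.73 (SE 0.08, edgeR adjusted p = 1.6e-40) with DHA in sh-IGFBP6 cells, 1.45 (SE 0.07, edgeR adjusted p = 2.4e-38) with erastin in sh-LUC cells and -0.12 (SE 0.08, edgeR adjusted p = 0.32) with DHA there. Of 14 tested genes of G1 arrest and p53 targets, 7 were higher and 1 lower with erastin and 7 higher and 1 lower with DHA in sh-IGFBP6 cells. In sh-LUC cells 7 were higher and 3 lower with erastin and 1 higher and 3 lower with DHA. The 3 lower with erastin and the 1 higher with DHA in sh-LUC cells lay close to the shares over all genes. The part of the arrest and p53 target genes in the levels of the members was not tested.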

How the data were processed

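RNA was sequenced after ribosomal RNA depletion, per the labels' protocols. Reads were processed with cutadapt 4.4, STAR 2.7.7a, featureCounts and GRCh38, per the submitters' processing notes, and the deposited values are raw counts per gene made by the authors. No source used here gives the annotation release or the strand setting, so reads of overlapping genes may be shared. Lines naming no gene held at most 0.0108% of a library and were left out, as was 1 gene with blank counts. Symbols came from a gene table (60480 genes) and GENCODE 29 (213 more).

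Counts were fitted with edgeR 4.0.16 (R 4.3.3) by the quasi-likelihood test, with TMM scaling, 18 libraries, 6 groups and filterByExpr at a minimum count of 10 and a total of 15. The biological coefficient of variation was 6.29% with 12 residual degrees of freedom. Differences between lines were interaction contrasts. CPM use the scaled library sizes, and FPKM divide them by the GENCODE 29 exon length. Simulated data of 15189 genes held 50 genes changed by each fold in each comparison. Changes of 2-fold were called for 96% with erastin and 88% with DHA in sh-IGFBP6 cells. In sh-LUC cells they were called for 78% with erastin and 88% with DHA, and between untreated lines for 90%. Changes of 1.5-fold were called for 66% with erastin and 58% with DHA in sh-IGFBP6 cells. In sh-LUC cells these were called for 76% with erastin and 66% with DHA, and between untreated lines for 64%.

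The members, lists and named genes were chosen with earlier results of these data known. Per-sample values were set for 13 genes (CDK1, CCNB1, PLK1, AURKA, AURKB, CDC20, KIF20A, TOP2A, MKI67, BUB3, LMNB1, FOXM1 and MYBL2) and for the members with the lowest and highest log2 fold changes. From other lists up to 2 genes with the smallest p per comparison were named. CDKN1A, the members of small groups and the genes of the promoter display were named beyond this rule after their values were seen. Replicate numbers were checked as pairs: 45 correlations of deviations ranged from -0.0398 to 0.106, with 1 above 0.1, so no block was used. Alternatives were RLE or library-size scaling, other filters, DESeq2 1.42.0, a replicate block, fits of the compared groups, removal of mitochondrial ribosomal RNAs and leaving out each library. No columns were identical.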

Additional observations from a re-analysis of the deposited data

Results flagged for a closer look

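The members below passed a test of the difference between lines in edgeR's quasi-likelihood fit (adjusted p below 0.05), given as the log2 response of sh-IGFBP6 cells minus that of sh-LUC cells.

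For erastin the difference was positive for 9 of the members listed here, since the fall was smaller in sh-IGFBP6 cells. It was 0.95 for PTTG1, 0.94 for PLK1 and 0.93 for KIF20A. It was 0.58 for FOXM1, 0.52 for CCNB1, 0.51 for TOP2A and 0.49 for CDC20. The smallest were 0.37 for MKI67 and 0.32 for AURKA. Under scaling by library size alone PTTG1 and PLK1 kept their calls and the other 7 lost them (edgeR adjusted p = 0.053 to 0.91).

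For DHA the difference was negative for 16 of the members listed here. It was -1.33 for HMMR, -1.20 for CDC25C, -1.15 for SPC24 and -0.94 for AURKA. It was -0.80 for KIF20A, -0.78 for CDC20, -0.77 for PLK1, -0.75 for TOP2A, -0.72 for MKI67 and -0.69 for MYBL2. It was -0.68 for CDK1, -0.67 for LMNB1, -0.60 for CCNB1, -0.59 for FOXM1, -0.53 for AURKB and -0.39 for INCENP. Under scaling by library size alone CCNB1, AURKB, TOP2A, MKI67, LMNB1, FOXM1 and INCENP lost their calls (edgeR adjusted p = 0.051 to 0.31) and the other 9 kept them. HMMR and SPC24 are named here because theirs were the lowest and the third lowest of the set, and both were called higher with DHA in sh-LUC cells.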

How the results depend on the processing

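No named member that was called in the main or the alternative fit changed direction between them. Of the values under the alternatives, 2434 stayed on their side of the threshold, 79 lost a call and 9 gained one. Changes of sign in members called in neither fit were not counted. The falls with erastin in both lines and with DHA in sh-IGFBP6 cells stayed at 50 members or more in every alternative run. Under scaling by library size alone, the members called with DHA in sh-LUC cells were 0 lower and 1 higher, 8 were lower between untreated lines, 4 were higher in the erastin difference between lines, and DHA against erastin in sh-IGFBP6 cells gave 0 lower and 7 higher. The genes called of all tested were then 2728 with erastin (main 4404) and 2579 with DHA (main 5202) in sh-IGFBP6 cells, and 4571 with erastin (main 6967) and 756 with DHA (main 2546) in sh-LUC cells. They were 1327 (main 3973) in the erastin difference, 1041 (main 3124) in the DHA difference and 1541 (main 3928) for DHA against erastin in sh-IGFBP6 cells. That scaling moved the median of all genes to -0.19 with erastin and -0.08 with DHA in sh-IGFBP6 cells, to -0.12 with erastin in sh-LUC cells and to -0.14 in the DHA difference, where the members' medians were -0.96, -0.77, -1.13 and -0.87. With DESeq2, members called higher were 4 with DHA in sh-LUC cells and 18 in the erastin difference, and 3 were lower for DHA against erastin in sh-IGFBP6 cells. DESeq2 called 2894 genes with erastin in sh-IGFBP6 cells, 1449 with DHA in sh-LUC cells, 2473 in the erastin difference, 1981 in the DHA difference, 2222 for DHA against erastin in sh-IGFBP6 cells and 5047 (main 7618) in sh-LUC cells. Without a filter, 17 members were higher in the erastin difference and 4 lower for DHA against erastin in sh-IGFBP6 cells. RLE scaling gave 2 members lower with DHA in sh-LUC cells, and so did the replicate block. The block changed no other count by over 1.5 times. The cause of these shifts was not tested.

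Leaving out 1 library at a time, members lower numbered 58 to 59 with erastin and 55 to 57 with DHA in sh-IGFBP6 cells, and 56 to 57 with erastin in sh-LUC cells. With DHA in sh-LUC cells 1 to 2 were lower and 5 to 10 higher. Between untreated lines 20 to 22 were lower and 19 to 20 higher. The erastin difference had 0 to 1 lower and 15 to 30 higher, and the DHA difference 56 to 57 lower. DHA against erastin gave 2 to 10 lower and 9 to 15 higher in sh-IGFBP6 cells and 58 higher in sh-LUC cells. The genes called of all tested were 3277 to 4354 with erastin and 4268 to 5250 with DHA in sh-IGFBP6 cells, 6093 to 7055 with erastin and 1779 to 2596 with DHA in sh-LUC cells, and 9285 to 10010 between untreated lines. They were 3140 to 3977 in the erastin difference, 2640 to 3179 in the DHA difference, and 2592 to 3874 in sh-IGFBP6 cells and 6845 to 7748 in sh-LUC cells for DHA against erastin.

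Limits: calls under the deepest and shallowest libraries are not equally sensitive, and in sh-IGFBP6 erastin replicate 3 a gene needs 11.4 CPM to reach 3 counts. Members at or under that level in it, such as PRC1, NUSAP1, SPC24, CENPA, CDC25C, HMMR and NDC80, rest on the other 2 erastin libraries there. The share of lower calls over all genes moved by over 10 points under library size alone, to 76.9% (main 49.5%) with erastin in sh-IGFBP6 cells, 66.7% (main 49.2%) with DHA there and 68.1% (main 53.3%) with erastin in sh-LUC cells. It was 73.5% (main 49.4%) in the DHA difference, and without a filter 67.7% there and 40.4% (main 57.4%) with DHA in sh-LUC cells. DHA against erastin gave 26.5% (main 48.2%) in sh-LUC cells and 36.9% (main 49.4%) in sh-IGFBP6 cells.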
